A study of Mus musculus with 2 samples.

Results

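The clustered protocadherins are cell-adhesion genes that lie side by side on mouse chromosome 18 in an alpha, a beta and a gamma cluster. All protein-coding genes on that chromosome whose symbol begins with Pcdha, Pcdhb or Pcdhg were taken, which gave 57 of the 21853 protein-coding genes of the annotation. They comprised 12 alpha, 22 beta, 12 gamma-A and 6 gamma-B genes, together with 5 C-type genes, of which Pcdhac1 and Pcdhac2 close the alpha cluster and Pcdhgc3, Pcdhgc4 and Pcdhgc5 close the gamma cluster. The gene starting at 37005203 carries the symbol Pcdha11 in GENCODE a second time; it is Pcdha10 in RefSeq on the same build and is so called here. Pcdhgb8, annotated as a polymorphic pseudogene, was not counted among the 57.

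In the alpha and gamma clusters, each gene has its own promoter and a large variable exon that encodes the extracellular and transmembrane parts of the protein, and this exon is spliced to constant exons shared by the whole cluster. Beta genes are single-exon genes without constant exons. In mouse neurons a cell switches on a small, largely random choice of alpha, beta, gamma-A and gamma-B promoters, each often from only 1 of the parental chromosomes, while the C-type promoters are used more regularly. The architectural protein CTCF and cohesin, DNA methylation, and enhancers near the constant exons are known to take part in that choice, and the resulting protein combinations let neurites of the same neuron recognise each other.

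Accessibility was measured by DNase-seq, which reads where DNase I cuts the DNA of nuclei, in cortical tissue from the left side of the cerebrum. The animals were B6CASTF1/J females, first-generation hybrids of C57BL/6J and CAST/EiJ, at an age of 2 months. The data formed 1 group of 2 libraries, replicate 1 and replicate 2, which the labels call biological replicates and assign to differently numbered females under 1 donor entry. There was no second group, so no condition was compared and no test was made, and each SD below is the spread between these libraries alone. Both libraries were of bulk tissue, in which fewer cells with an open site and less opening per cell cannot be told apart.

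Taken as 1 cut each, the steps of the signal scale gave a depth of 206 M (replicate 1) and 208 M (replicate 2) cuts. The tissue label was set against marker promoters: 6 of 6 excitatory-neuron and 4 of 4 inhibitory-neuron markers had a promoter peak in both libraries, as did 2 of 4 oligodendrocyte, 1 of 4 astrocyte and 0 of 3 microglial markers. The microglial marker Csf1r and the astrocyte marker Aldh1l1 had a peak in replicate 2 only. None of 4 genes of liver, muscle, skin or blood had a promoter peak in either library.

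In whole cortex, a promoter peak in both libraries was found at a minority of the clustered protocadherin genes. The promoter was taken as the 500 bp on either side of the variable-exon start, and a gene had a promoter peak where a peak of the authors' larger list reached that window by at least 1 bp. Such a peak was present in both libraries at 15 of the 57 genes, 26.3%, where the share over all protein-coding genes was 59.7%. It was present in 1 library at 13 genes and in neither at 29. Single libraries gave 23 genes in replicate 1 and 20 in replicate 2. On the authors' stricter list 6 genes had a promoter peak in both libraries, namely Pcdhac1, Pcdhac2, Pcdhgc3, Pcdhgc5, Pcdhga12 and Pcdha12.

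The 5 C-type genes all had a promoter peak in both libraries. Of the other 52 genes, 10 did, or 19.2%, made up of 2 of 12 alpha, 3 of 22 beta, 5 of 12 gamma-A and 0 of 6 gamma-B genes. The difference between the C-type share and that of the other members was 80.8 percentage points. No window overlapped that of a neighbouring member, since the closest starts lay 4131 bp apart, so each peak was counted for the gene it lay at.

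**Figure D1:**
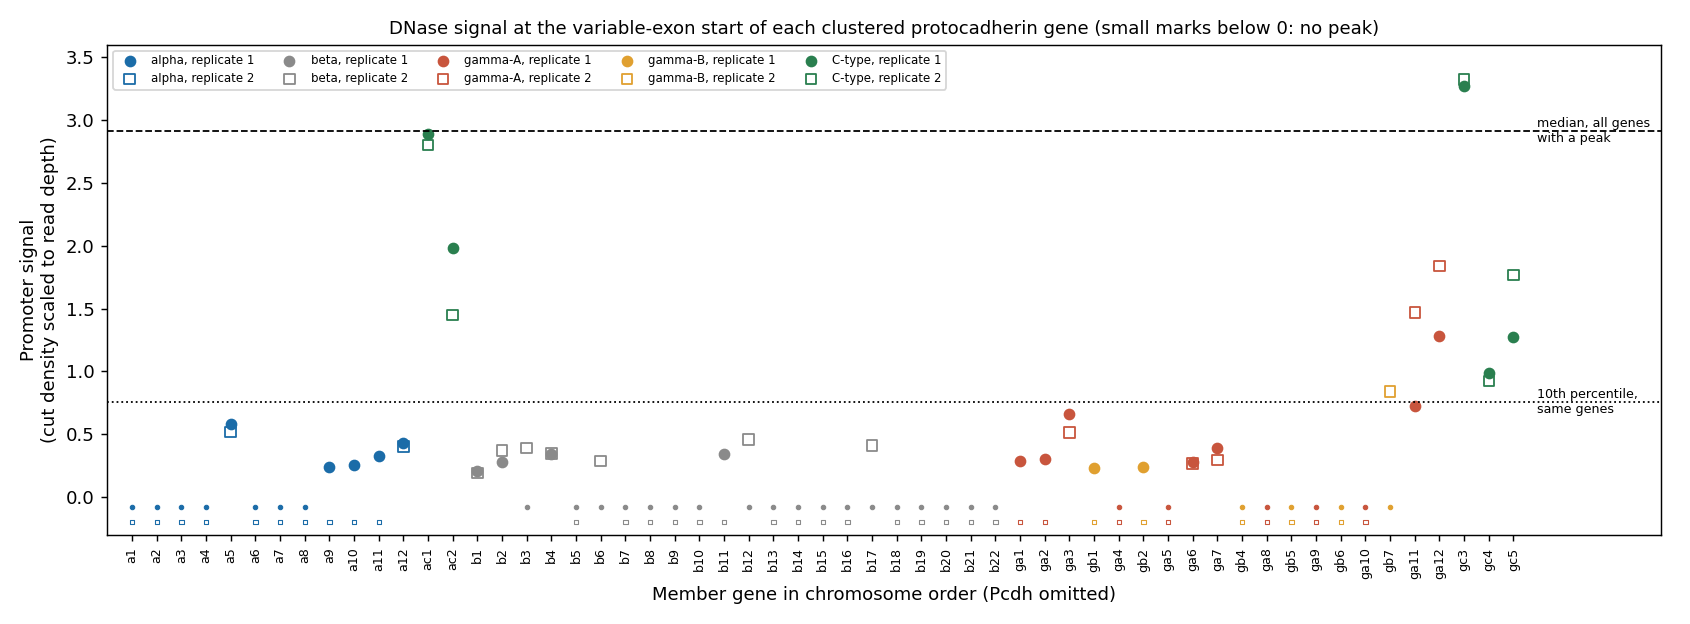
Promoter signal (y axis, cut density scaled to read depth) of each clustered protocadherin gene in chromosome order (x axis), with filled circles for replicate 1 and open squares for replicate 2; small marks below 0 stand for no peak. The highest points belong to the C-type genes Pcdhgc3 and Pcdhac1, and the dashed and dotted lines are the median (2.91) and 10th percentile (0.757) over all protein-coding genes with a promoter peak in both libraries.

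Among the C-type genes, Pcdhgc3 had the strongest promoter. Its signal, the height of the highest peak that reaches the window in cut density scaled to read depth, was 3.27 in replicate 1 and 3.32 in replicate 2, a mean of 3.3 ± 0.038 (SD, n = 2). That placed it at the 56.9th percentile of the 13036 protein-coding genes with a promoter peak in both libraries, whose median was 2.91. Pcdhgc3 was the only member with a mean above that median. Pcdhac1 followed at 2.89 and 2.80, a mean of 2.85 ± 0.065, or the 49.0th percentile. The strongest peaks of these genes lay over or just before the start, at chr18:37806201-37806480 for Pcdhgc3 and chr18:37089861-37090080 for Pcdhac1.

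Pcdhac2 had 1.98 in replicate 1 and 1.45 in replicate 2, a mean of 1.72 ± 0.375 (SD, n = 2). Pcdhgc5 had 1.27 and 1.77, a mean of 1.52 ± 0.349. The libraries differed in opposite directions at these genes, so their order was not resolved. At both, several called peaks overlapped into a long merged stretch: 1720 bp at chr18:37143401-37145120 for Pcdhac2 and 1393 bp at chr18:37819181-37820573 for Pcdhgc5. Over the genome, the shared peaks, merged in the same way and with a call in both libraries, had a median width of 260 bp. Pcdhgc4, whose product is required for neuron survival in mouse, was the weakest of the C-type genes, at 0.988 and 0.922, a mean of 0.955 ± 0.0468.

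Outside the C-type genes, the promoters with most signal stood at the 3′ end of the gamma array. Pcdhga12, the last gamma-A gene, had 1.28 in replicate 1 and 1.84 in replicate 2, a mean of 1.56 ± 0.396 (SD, n = 2), within the range of the C-type genes. Its upstream neighbour Pcdhga11 had 0.727 and 1.47, a mean of 1.1 ± 0.525. The spread at Pcdhga11 came from different peaks: the peak found in both libraries, at chr18:37756041-37756220, had 0.727 and 0.586, whereas replicate 2 had a further peak at chr18:37755581-37755780. Pcdhgb7, next upstream, had a peak of 0.840 in replicate 2 and none in replicate 1. The start of the pseudogene Pcdhgb8, between Pcdhga11 and Pcdhga12, also lay beside a shared peak, with 0.794 and 1.09.

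The other members with a promoter peak in both libraries were weak, and all lay below the 10th percentile of 0.757 set by all protein-coding genes with such a peak. Pcdhga3 had 0.659 and 0.514 in replicates 1 and 2, a mean of 0.586 ± 0.102 (SD, n = 2). Pcdha5 had 0.581 and 0.519, a mean of 0.550 ± 0.0443. Pcdha12 had 0.426 and 0.403, a mean of 0.415 ± 0.0162. Peak signals differed little between libraries at Pcdha5 and Pcdha12. Pcdhb4 (0.344 and 0.346), Pcdhga7 (0.392 and 0.293), Pcdhb2 (0.281 and 0.370) and Pcdhga6 (0.281 and 0.269) formed the next step down. Pcdhb1, the first beta gene, was lowest at 0.203 and 0.192, a mean of 0.198 ± 0.00803, which was the 0.0844th percentile. The values of Pcdhb1 correspond to 42 and 40 steps of the signal scale, and those of Pcdhgc3 to 675 and 692. The median over the 15 genes was 0.586, with 1.72 for the 5 C-type genes and 0.380 for the 10 others.

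A further 13 genes had a promoter peak in a single library. In replicate 1 alone these were Pcdha9, Pcdha10, Pcdha11, Pcdhb11, Pcdhga1, Pcdhga2, Pcdhgb1 and Pcdhgb2, at signals between 0.228 and 0.344. In replicate 2 alone they were Pcdhb3, Pcdhb6, Pcdhb12, Pcdhb17 and Pcdhgb7, at 0.288 to 0.840. The alpha genes of this kind were thus all from replicate 1, and 4 of the 5 beta genes from replicate 2. Of the 28 members with any promoter peak, 46.4% had it in 1 library, against 5.54% of the 13801 protein-coding genes with any. The members with any peak were mostly weak, and the part of low signal in this share was not tested.

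The cut-rate calls, which list stretches whose local cut rate passed an FDR of 0.05, gave the same order of classes. Every peak of the larger list held a listed base, so the measures are not independent and this order is no separate support. Listed bases covered 14.0% of the member windows in replicate 1 and 11.9% in replicate 2, a mean of 12.9 ± 1.5% (SD, n = 2), against 46.9 ± 2.22% over all protein-coding genes. The mean was 75.1 ± 2.83% in C-type, 11.8 ± 2.47% in gamma-A, 8.67 ± 4.84% in alpha, 4.35 ± 0.462% in beta and 3.20 ± 0.259% in gamma-B windows. Alpha windows differed most between libraries, with 12.1% in replicate 1 and 5.25% in replicate 2. At Pcdha5, whose peak signals were close, listed bases covered 51.6% of the window in replicate 1 and 13.9% in replicate 2. A listed base was present in both libraries in 15 member windows, 26.3%, where the share of all protein-coding genes was 60.7%. Across the 57 windows the listed percent of replicates 1 and 2 had a Pearson r of 0.893 and a Spearman rho of 0.638, with many windows at 0 in both; these windows share libraries and sequence family, so the values are descriptive.

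Windows without a listed base in either library, 27 in all, came in runs along the chromosome. The longest was 6 genes in the middle of the gamma array, from Pcdhgb4 to Pcdhga10, followed by 5 genes from Pcdhb18 to Pcdhb22. Runs of 4 covered Pcdha1 to Pcdha4, Pcdhb7 to Pcdhb10 and Pcdhb13 to Pcdhb16, and Pcdha6 to Pcdha8 made a run of 3. In the alpha cluster, listed bases therefore appeared at the genes closest to Pcdhac1 and at Pcdha5. The Spearman rho between position and the mean listed percent of both libraries was 0.678 over 12 genes. In replicate 2, however, only Pcdha5 and Pcdha12 held listed bases, and those at Pcdha9, Pcdha10 and Pcdha11 were in replicate 1 alone. In the beta cluster listed bases appeared mostly at the first genes, with a rho of -0.566 over 22. The gamma-A and gamma-B genes followed no single slope, with a rho of -0.124 over 18, since both ends of the array held listed bases.

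By the mean of both libraries, the position of most listed bases differed by class, but the libraries did not place it alike. C-type genes had listed bases from well before the start, with 58% and 40% of bases in replicates 1 and 2 in the bin that begins at -450 bp, and on into the variable exon, with the highest cover, 98.8% and 100% of bases in replicates 1 and 2, in the bin at 200 to 249 bp downstream of the start. Beta genes peaked in the last 50 bp before the start, at 13.6% and 18.4%. Gamma-A genes peaked at 300 to 349 bp downstream, at 36.3% and 20.3%, and alpha genes at 400 to 449 bp downstream, at 21.7% and 16.7%. The alpha values rest on 3 genes in replicate 1 and 2 in replicate 2. The beta values rest on 3 and 5 genes, and the gamma-A values on 5 and 4. In replicate 1, alpha genes were highest in the bins that begin at 100 and 150 bp, and C-type genes at 800 and 850 bp. Beta genes in replicate 1 were highest in the bin that begins at 0 bp, with 16.5%. In replicate 2, gamma-A genes were highest in the bin that begins at 350 bp, with 24.5%. The gamma-B peak, at 100 to 149 bp downstream, was 28.7% in replicate 1 and 0.0% in replicate 2.

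**Figure D2:**
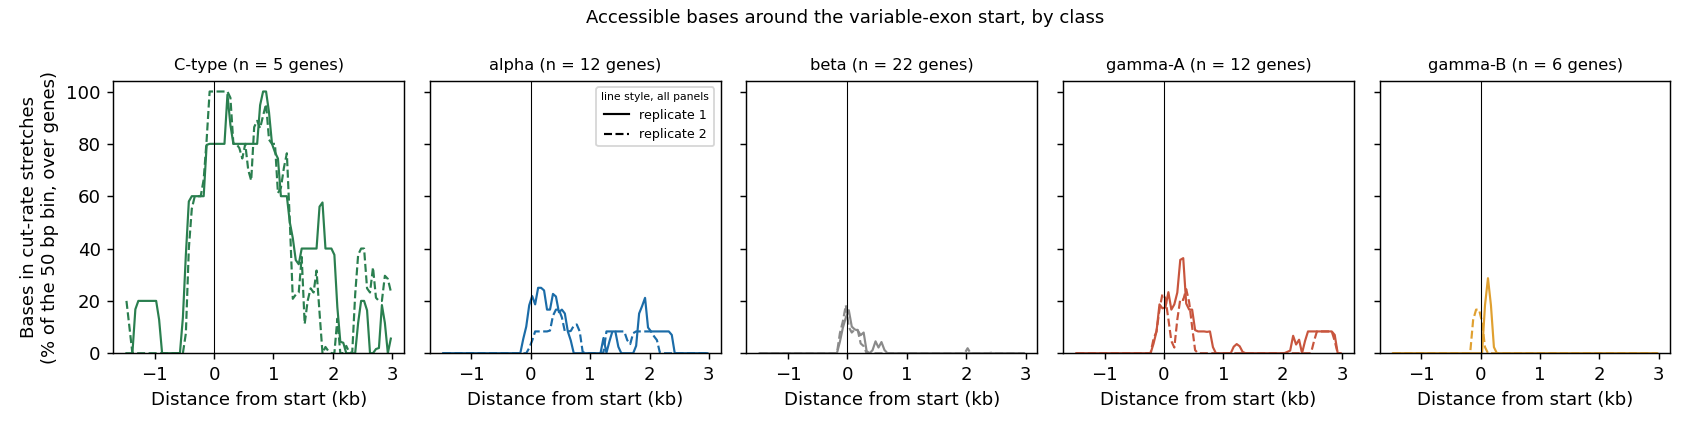
Share of bases in listed cut-rate stretches (y axis, percent of each 50 bp bin over the genes of a class) against distance from the variable-exon start in kb (x axis), with solid lines for replicate 1 and dashed lines for replicate 2. The C-type panel reaches 100% and stays high into the exon, while the other panels stay at or below 36.3%.

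Footprints, stretches within open DNA that a bound protein can shield from cutting, were called by the authors at an FDR of 0.01. Member windows held 78 in replicate 1 and 56 in replicate 2, or 1.17 ± 0.273 per kb (SD, n = 2), against 4.16 ± 0.662 per kb over all protein-coding genes. The C-type windows held 38 and 31 of them, or 6.89 ± 0.989 per kb. All 5 C-type windows held a footprint in each library. Of the 21853 windows of all protein-coding genes, 13194 in replicate 1 and 13072 in replicate 2 did, which lowers their density. The 12 protocadherins outside the clusters, 11 of them with a promoter peak in both libraries, held 6.62 ± 2.41 per kb. In C-type windows, 47.4% of the footprints of replicate 1 and 61.3% of those of replicate 2 were overlapped by a footprint of the other library, compared with 17.5% and 24.0% in the other member windows and 50.6% and 63.7% in the windows of other protein-coding genes. Footprints outside the C-type genes, 40 and 25, were thus mostly seen once.

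CpG content and repeated sequence varied with class. The median window held 44 CpG dinucleotides in C-type, 38 in gamma-B, 36 in alpha, 30.5 in gamma-A and 15 in beta genes, against 43 over all protein-coding genes. With 20 to 39 CpG, 7 of 29 members had a promoter peak in both libraries, against 56.2% of 2961 other protein-coding genes. With 40 to 59 CpG, all 3 C-type genes but 1 of 4 other members had one, against 90.9% of 3760 other genes. With 10 to 19 CpG, 3 of 18 members had one, against 14.1% of 3056 other genes. Of these 18, 16 were beta genes, and 1 of the 16, Pcdhb4, had such a peak. The others with a peak were Pcdhga12, with 12 CpG, and Pcdhgc5, with 16. Their signals were 1.56 and 1.52, against a median of 0.785 for the other genes of that CpG class that had a peak. The CpG count depends on the start used. At Pcdhga12 the peak was centred 350 bp after the start. Its variable exon beyond the window held 58.5 CpG per kb, against 27.8 at Pcdhgc5. The part of CpG content in these differences was not tested.

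**Figure D3:**
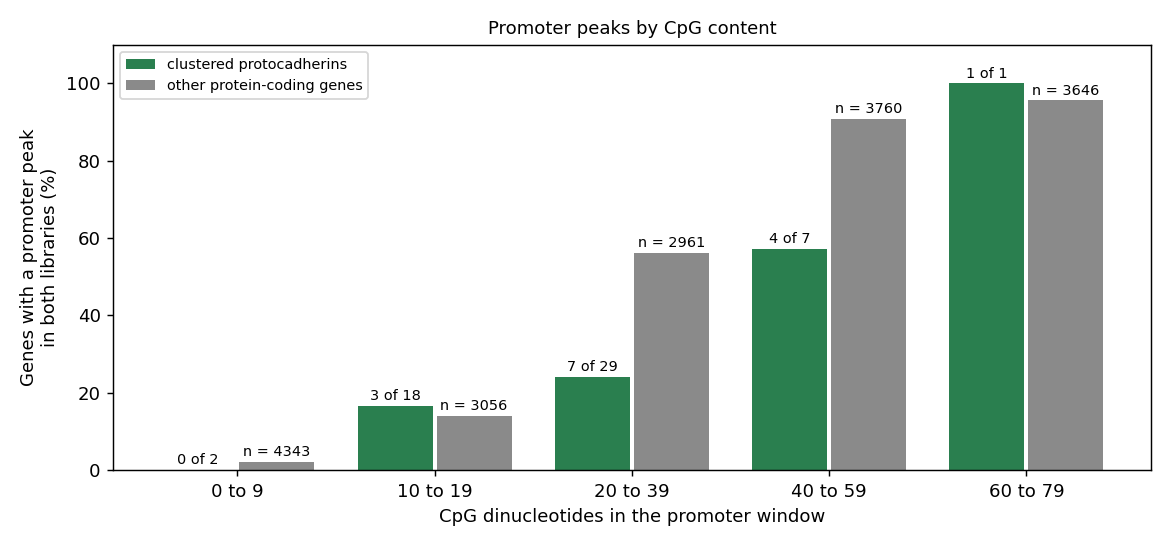
Percent of genes with a promoter peak in both libraries (y axis) by number of CpG dinucleotides in the promoter window (x axis), with green bars for clustered protocadherins and grey bars for other protein-coding genes. From 20 to 59 CpG the green bars are lower (7 of 29 and 4 of 7), while from 10 to 19 CpG they stand at 16.7% and 14.1%, with Pcdhga12, Pcdhgc5 and Pcdhb4 making up the 3 members with a peak.

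Genes of these clusters arose by duplication, and reads from stretches that occur elsewhere in the genome cannot be placed uniquely. The share of a window made of 31-base words that occur again in the genome had a median of 22.5% in alpha, 19.9% in gamma-B and 2.21% in gamma-A, and of 0.0% in beta and C-type windows and in those of other protein-coding genes. Over 10% of the window was of this kind in 11 of 12 alpha, 4 of 6 gamma-B, 4 of 22 beta, 0 of 12 gamma-A and 0 of 5 C-type genes, against 17.5% of other protein-coding genes. Such words made up 46.5% of the promoter peak of Pcdha5, 35.3% of that of Pcdha12 and 37.7% of that of Pcdhgb7. They made up 0.0% of the highest promoter peaks of Pcdha10, Pcdha11, Pcdhgb1 and Pcdhgb2. The part of read placement in the alpha and gamma-B values was not tested.

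Sequence motifs were searched on both strands of the windows. CGCT, the core letters of the conserved element of protocadherin promoters, was present in all 57 windows and in 86.4% of those of all protein-coding genes, as short words often are. The GC box GGGCGG was present in 20 of 57, made up of 11 of 12 alpha, 4 of 5 C-type, 3 of 12 gamma-A, 2 of 6 gamma-B and 0 of 22 beta windows, against 61.3% of all. The REST half-site TTCAGCACC was present in 0 member windows and in 1.51% of all. The core consensus of CTCF, 12 letters long, was present in 1 member window, that of Pcdha1, and in 0.998% of all; with 1 mismatch it was present in 4 member windows and 11.8% of all. Within 1 kb of the start 6 members had it, namely the alpha genes whose exonic matches are described below. No share over all genes at this width is given here. As strings of letters, CGCT and the CTCF core do not contain each other. The match in the Pcdha1 window lay 464 bp after the start, within the exon. A search for an exact consensus can miss sites that depart from it, and binding of CTCF at these windows was not tested.

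Within the variable exons, the CTCF core consensus lay at fixed places by class. In 6 of 12 alpha genes (Pcdha1, Pcdha4, Pcdha6, Pcdha7, Pcdha8 and Pcdha12) it lay 464 to 586 bp after the start on the plus strand, the strand of transcription. In 13 of 22 beta genes it lay 2276 to 2815 bp after the start, each time on the minus strand. The match of Pcdha12, at chr18:37020686-37020697, overlapped a peak and a footprint of both libraries. None of the other 18 overlapped a listed base in either library. Listed bases covered only 1.7% and 1.42% of the genome in replicates 1 and 2, and 0.428% and 0.350% of the stretch of beta genes. The low number of overlaps is therefore not read as a trait of the matches. The alpha genes with a match also had no listed base in the promoter window, apart from Pcdha12.

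Some variable exons were accessible beyond the promoter window. A shared peak was centred in that part of the exon in 7 members: all 5 C-type genes, Pcdha12 and Pcdhga12. No share for the exons of other protein-coding genes is given here, so whether this count is unusual cannot be told. Single libraries gave 11 members in replicate 1 and 8 in replicate 2, and the stricter list gave 3 in both. The exonic peak of Pcdhga12, at chr18:37768161-37768420, was centred 2710 bp after the start. It had 1.44 in replicate 1 and 1.69 in replicate 2, a mean of 1.56 ± 0.175 (SD, n = 2). That was as high as the promoter of the same gene. Another gene model, Gm26672, covered the centre of that promoter peak and those of the exonic peaks of replicate 1 alone, but not this centre. Which gene this peak belongs to was not tested. Among the C-type genes, the highest peak centred in that part of the exon had 1.98 in replicate 1 and 1.02 in replicate 2 at Pcdhac2, where the peak of replicate 1 is also that of the promoter. It had 1.25 and 0.888 at Pcdhgc3, and 1.16 and 0.725 at Pcdhgc4. At Pcdhgc5 it had 0.882 and 0.543, and at Pcdhac1 0.480 and 0.394. Replicate 1 was the higher at each of these 5 genes. The exonic peak of Pcdhgc3 was also centred within the gene model BC037039. The highest shared exonic peak of Pcdha12 had 0.354 and 0.341. Beta and gamma-B exons held no shared peak of this kind.

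The whole span, from 200 kb before Pcdha1 to 200 kb after the gamma cluster, chr18:36730285-38041873, held 67 shared peaks, 5.11 per 100 kb, against 2.95 per 100 kb over the genome. Single libraries gave 117 peaks in replicate 1 and 95 in replicate 2 after merging, and the stricter list gave 41 shared. The peaks were unevenly placed. The 260 kb of beta genes held 3 shared peaks, 1.15 per 100 kb, all at promoters (Pcdhb1, Pcdhb2 and Pcdhb4), and listed bases covered 0.428% and 0.350% of it in replicates 1 and 2, against 1.7% and 1.42% of the genome. The alpha variable stretch held 7, or 3.23 per 100 kb, and the gamma variable stretch 14, or 8.70 per 100 kb. The 200 kb after the gamma cluster held 21, and the flank before the alpha cluster 8. Without the flanks, from the first start to the last gene end, there were 38 shared peaks, or 4.17 per 100 kb.

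**Figure D4:**
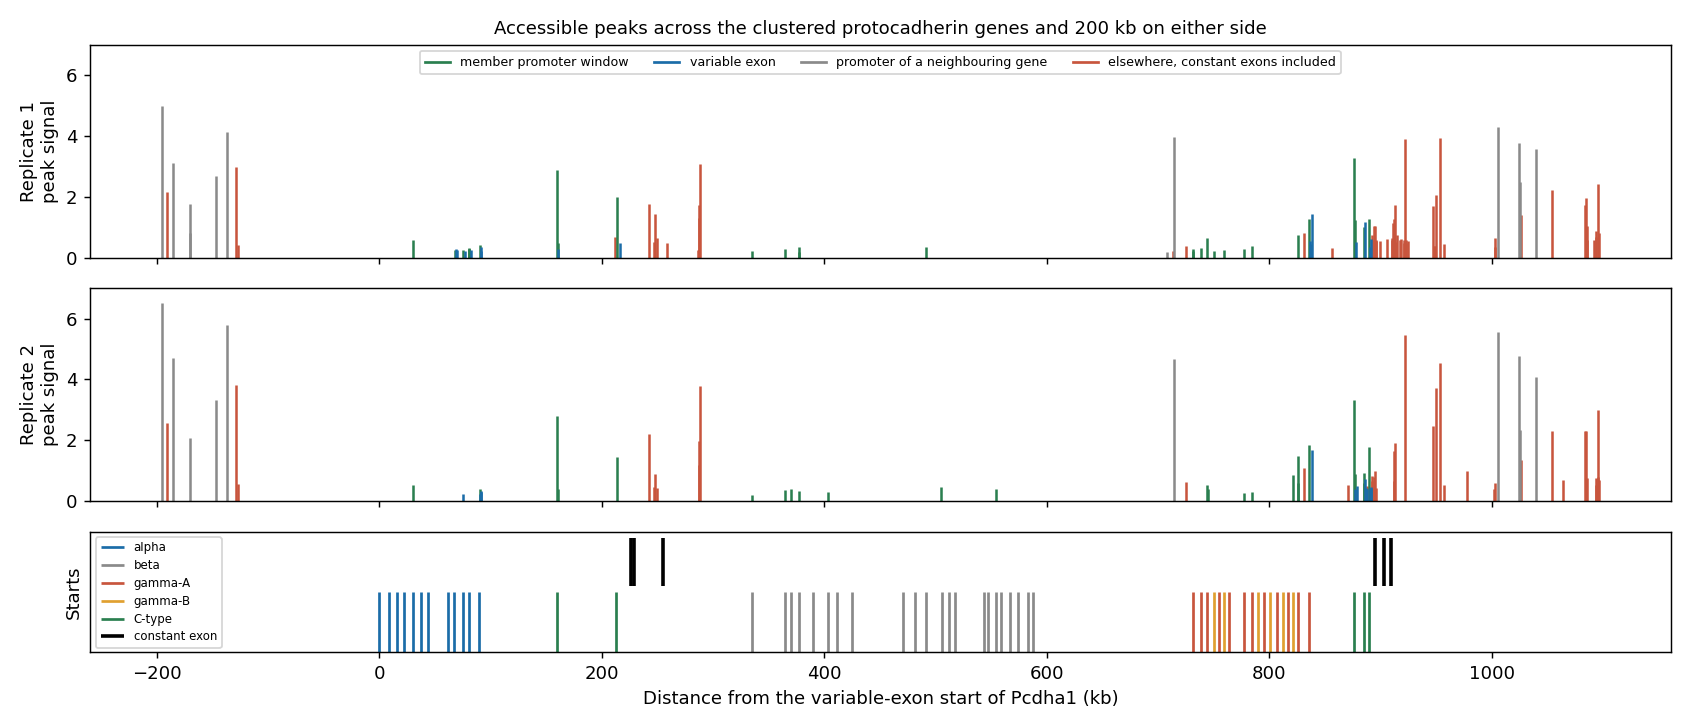
Peaks of replicate 1 (top) and replicate 2 (middle) along the clustered protocadherin genes with 200 kb on either side; the x axis is distance from the start of Pcdha1 in kb, line height is peak signal, and colour is the place of the peak. The lower panel marks the 57 starts by class and the constant exons, and peaks are dense around the gamma constant exons and sparse over the beta genes.

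Of the shared peaks, 44 lay outside every member promoter window and variable exon. Between the alpha constant exons 2 and 3, chr18:37172281-37172500 had 1.77 in replicate 1 and 2.19 in replicate 2, a mean of 1.98 ± 0.298 (SD, n = 2), and chr18:37178301-37178840 had 1.42 and 0.903. About 30.7 kb after the last alpha constant exon, chr18:37218221-37218480 had 3.09 and 3.77, a mean of 3.43 ± 0.480, a mean above that of every member promoter, although its value in replicate 1 was below that of Pcdhgc3. Other peaks lay next to it: chr18:37217201-37217580, with 1.74 and 1.97, overlapped a minus-strand CTCF core match with a footprint in both libraries, and chr18:37217781-37218100, with 1.31 and 1.18, held no match. Enhancers of the alpha cluster have been described in mouse both between these constant exons and downstream of the last of them; which peak matches which enhancer was not examined here.

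Downstream of the gamma cluster, the 3 strongest peaks outside promoter windows lay in the body of Diaph1, which encodes an actin-nucleating formin and runs on the opposite strand. The peak 10.4 kb after the last gamma constant exon, chr18:37852161-37852400, had 3.90 in replicate 1 and 5.45 in replicate 2, a mean of 4.67 ± 1.09 (SD, n = 2). The peak 41.8 kb after it, chr18:37883561-37883760, had 3.93 and 4.54, and the merged peak overlapped a minus-strand CTCF core match with a footprint in both libraries. Between them, chr18:37880081-37880480 had 2.07 and 3.71. The regulatory sites known to serve the gamma and beta genes in mouse lie downstream of the gamma cluster. Over all 67 shared peaks, 5 held the CTCF core, or 7.46%, against 6.37% of the 80522 shared peaks of the genome.

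Accessible sites continued downstream of Pcdhgc5 in both libraries, but over the gamma constant exons mainly in replicate 1. Between Pcdhgc5 and the first gamma constant exon, 2.89 kb held 3 shared peaks, with listed bases over 37.1% in replicate 1 and 58.1% in replicate 2. From constant exon 1 to 3, the libraries differed: listed bases covered 20.2% in replicate 1 and 2.88% in replicate 2, with 8 peaks in replicate 1 and 2 in replicate 2. Over the whole span with its flanks, 64 merged peaks were assigned to none of the named features, and 34 of these were shared. None of the 3 peaks centred in a constant exon was shared. The shared peak at chr18:37824921-37825320, with 1.04 in replicate 1 and 0.994 in replicate 2, covered gamma constant exon 1 but was centred outside it.

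Neighbouring genes of other kinds had ordinary promoters. Of the 18 other protein-coding gene models in the span, 12 had a promoter peak in both libraries, and Slc25a2 had one in replicate 1 only, at 0.184. Next to the beta genes, Taf7, which encodes a subunit of the general factor TFIID, had 3.96 in replicate 1 and 4.66 in replicate 2, a mean of 4.31 ± 0.495 (SD, n = 2). Its promoter was higher than that of any member in both libraries. The peaks at Tmco6 (mean 5.74), Zmat2 (4.96), Diaph1 (4.91), Hdac3 and Rell2 (4.26 at a shared peak) and Fchsd1 (3.83) were higher by mean than any member too, as was that of Ndufa2 and Ik (3.90 at a shared peak). Hars and Hars2 shared 3.0, and Wdr55 had 1.91. Dnd1 and Arap3 had no promoter peak, nor had Gm42416, Gm37013 and Gm37388, gene models that start inside the exons of Pcdha4, Pcdha6 and Pcdha7. On chromosome 18 as a whole, 72.0% of 454 other protein-coding genes had a promoter peak in both libraries.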

How the data were processed

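Per the file headers and labels, the authors aligned the reads of each library to mm10 and deposited 2 peak lists, footprints and cut-rate calls per library; the tools, and their versions, were not given in the sources used here. Peak signal is the deposited height of the cut density, scaled by the authors to read depth, per the file manifests. In the deposited footprint tables the FDR is a fraction, 0.01 throughout, and the deposited cut-rate tables give FDR values (adjusted p-values, or q-values) below 0.05. The larger peak list reached an FDR of 0.05 and the smaller 0.001, read from the values. Signals were whole multiples of 1 step per library, within 0.05 of a step, which gave the depths. Only called sites are listed, so an absent peak is not a signal of 0.

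Coordinates are 1-based on mm10 and genes are GENCODE M21 on GRCm38.p6, the same build. The start was that of the transcript with the longest coding sequence. A merged peak was shared when peaks of both libraries overlapped by at least 1 bp. Computation used Python 3.11.15 with numpy 2.4.6 and pandas 2.3.3 and was tested on simulated data. Members and lists were chosen with earlier results of these data known. Named were the C-type genes, the 10 strongest and 5 weakest promoters with a peak in both libraries, genes with a peak in 1 library, the strongest exonic peaks, the 10 strongest peaks outside member windows, and all neighbours; Pcdhgb8, the runs of windows without listed bases, the CTCF matches and the other listed peaks were singled out after their values were seen. Alternatives were window width, anchor, peak list, overlap rule, FDR, mismatches and each library left out. Alleles were not analysed.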

Additional observations from a re-analysis of the deposited data

How the results depend on the processing

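Of 58 results under alternative settings, 29 stayed within the set limits of the reported value, 29 moved and 0 changed sign; the cause of the moves was not tested. The count of member promoters with a shared peak, 15, was 6 on the smaller list and 20 to 23 with 1 library left out. The median signal, 0.586, was 1.64 on the smaller list and 0.344 to 0.485 with 1 library left out. The C-type difference of 80.8 points was 88.5 with 250 bp windows, 76.2 on the smaller list, 60.8 with the peak centre required in the window, and 65.4 to 71.2 with 1 library left out. The share of other protein-coding genes, 59.7%, was 61.6% with 1 kb windows, 57.3% with 250 bp, 59.0% from the outermost 5′ end, 55.8% on the smaller list, 58.6% by peak centre, 61.2% to 61.7% with 1 library left out, and 43.6% from the coding start, an anchor chosen after seeing the data. Requiring the peaks of both libraries to overlap each other, also chosen later, left all 15. On the smaller list, shared peaks in the span numbered 41 and members with an exonic peak 3; with 1 library left out these were 95 to 117 and 8 to 11, and peaks outside member windows and exons 54 to 70. Footprints per kb, 1.17, were 0.710 with 1 kb and 1.82 with 250 bp windows. Listed bases, 12.9%, were 8.84% with 1 kb windows and 6.73% at an FDR below 0.001. CTCF core matches, 1, were 6 with 1 kb windows and 4 with 1 mismatch.

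No paired analysis was possible because there is 1 group. With 2 libraries an SD is imprecise, and calls near the threshold depend on depth.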

Other observations

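Most protocadherins outside the clusters had an accessible promoter. Of 12 such genes, 11 had a promoter peak in both libraries, with a median signal of 1.78, and Pcdh1 had one in replicate 1 only, at 1.34. Pcdh9 had 5.50 in replicate 1 and 6.73 in replicate 2, a mean of 6.12 ± 0.873 (SD, n = 2), and Pcdh10 and Pcdh17 had means of 5.89 and 4.50. The lowest was Pcdh12, known from blood vessels, at 0.490. The median window of these 12 genes held 46 CpG, and 90.9% of other genes with 40 to 59 CpG had a promoter peak in both libraries. All 10 classical and related cadherins listed, with a median of 54 CpG, had a peak in both libraries, with a median of 1.85, the highest being Cdh2 (N-cadherin) at 2.32 and the lowest Cdh12 at 0.467.

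Of 23 genes known to regulate the clusters, 22 had a promoter peak in both libraries, a share of 95.7% where that of all protein-coding genes was 59.7%. Their median window held 105 CpG, and 97.4% of other genes with 80 or more CpG had such a peak. The median signal of the list was 3.62, against 2.91 over all protein-coding genes with such a peak. Zfp143, a CTCF-associated factor, had 9.13 and Ctcf 3.58. Of the core cohesin genes, Stag1 (8.68), Smc3 (6.95) and Rad21 (4.0) were above 2.91, and Stag2 (2.41) and Smc1a (2.34) were below it. Of the genes that load or release cohesin, Wapl (5.83), Mau2 (4.58), Pds5b (4.39) and Nipbl (3.31) were above 2.91 and Pds5a (2.66) was below it. Dnmt3b, a DNA methyltransferase that acts on these promoters in the mouse embryo, had 1.41 in replicate 1 and 0.677 in replicate 2, a mean of 1.04 ± 0.518 (SD, n = 2). Tet1, a demethylase gene, had no peak in either library at the start used.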
